A study of Mus musculus with 9 samples.

Results

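The genes described here are the TAM receptors Tyro3, Axl and Mertk and their bridging ligands Gas6 and Pros1, taken by symbol from a read count table of bulk brain RNA. They are 5 of the 56748 genes in the table, and all 5 had enough counts to be tested. The series asked how forced expression of CD5L, a secreted macrophage scavenger protein, changes the brain of an Alzheimer's disease mouse model, and its title names phagocytic removal of amyloid. Tissue was brain without cerebellum from mice aged 7 months, with 3 libraries per genotype, each titled as a separate mouse. 5xFAD/Cd5l tg/wt mice carried the 5xFAD transgenes and 1 transgenic Cd5l allele, which makes mouse CD5L from the human PDGF-B promoter. 5xFAD mice carried the amyloid transgenes alone. These are known to include mutant human APP under the neuronal Thy1 promoter. Wild-type mice had none of these transgenes. Neither sex nor littermate status is labelled.

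TAM receptors are tyrosine kinases that bind dying cells indirectly. Gas6 and protein S, the product of Pros1, are vitamin K-dependent proteins that hold on to exposed phosphatidylserine at one end and engage the receptor at the other. Signalling then drives engulfment and restrains cytokine production. Gas6 can bind all of the TAM receptors, whereas protein S is known mainly as a ligand of Tyro3 and Mertk and, in blood, as an anticoagulant cofactor. In brain, Mertk and Axl are known from microglia and Tyro3 mostly from neurons, and microglia around amyloid plaques are known to carry more Axl.

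The sequences just upstream of Axl, Pros1 and Gas6 are shown because Axl and Pros1 varied together across the 9 libraries (r = 0.981), and Gas6 is the other ligand. Each is the 250 bases before the gene start in a RefSeq promoter table of build GRCm38.p6, in which all 5 members were matched, written 5′ to 3′ on the gene's strand. Capitals mark matches to 7 motifs searched on both strands. The windows are chr7:25788734-25788983 on the minus strand for Axl, chr16:62854057-62854306 on the plus strand for Pros1 and chr8:13494536-13494785 on the minus strand for Gas6.
Axl: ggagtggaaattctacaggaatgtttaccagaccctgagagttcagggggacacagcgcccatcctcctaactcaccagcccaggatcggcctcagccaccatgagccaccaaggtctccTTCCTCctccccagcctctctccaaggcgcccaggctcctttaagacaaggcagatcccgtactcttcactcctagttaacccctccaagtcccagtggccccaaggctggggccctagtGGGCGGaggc
Pros1: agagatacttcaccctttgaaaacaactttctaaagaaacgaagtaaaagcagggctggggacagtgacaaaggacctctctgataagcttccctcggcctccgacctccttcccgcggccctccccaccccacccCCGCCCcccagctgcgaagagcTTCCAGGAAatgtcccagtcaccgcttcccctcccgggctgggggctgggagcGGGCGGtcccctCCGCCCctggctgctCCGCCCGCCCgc
Gas6: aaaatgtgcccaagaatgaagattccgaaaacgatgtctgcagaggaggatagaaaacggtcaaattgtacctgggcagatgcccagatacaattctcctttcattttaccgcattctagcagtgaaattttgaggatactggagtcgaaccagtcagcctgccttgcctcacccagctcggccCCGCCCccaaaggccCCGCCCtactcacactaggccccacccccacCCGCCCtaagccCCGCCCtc
The motifs were the Sp1 box GGGCGG, the AP-1 site TGANTCA, the STAT site TTCNNNGAA, the PU.1 core GAGGAA, the E-box CACGTG, the TATA box TATAAA and the CCAAT box. Axl held 1 Sp1 box and 1 PU.1 core. Pros1 held 5 Sp1 boxes, a pair of them overlapping, and 1 STAT site. Gas6 held 4 Sp1 boxes. Tyro3 and Mertk held 3 Sp1 boxes each, and no member matched any of the other motifs. The whole promoter entry of Tyro3 shared 123 stretches of 20 bases with its own transcripts, so part of its window may be transcribed. That number was 31 for Pros1, 3 for Axl and 0 for Mertk and Gas6. Of 32851 promoters of this length, 32.7% held an Sp1 box, 23.3% a PU.1 core and 7.02% a STAT site. The AP-1 site was found in 6.75%, the E-box in 6.02%, the TATA box in 12.4% and the CCAAT box in 33.8%. The window of Axl was 60.0% GC, that of Pros1 64.4% and that of Gas6 54.8%, against a median of 52.4% over all promoters. A match describes the letters and is no evidence of binding.

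The libraries held 14575416 to 17865150 counts. Cd5l had 2553, 2822 and 3551 counts in 5xFAD/Cd5l tg/wt libraries 1, 2 and 3, no count in any 5xFAD library and 1 count over all wild-type libraries. Marker lists placed all libraries in brain, with summed levels of 7921 to 8722 CPM (counts scaled to the size of the library) for 10 neuronal genes in 5xFAD/Cd5l tg/wt mice, 8039 to 8302 CPM in 5xFAD mice and 8234 to 8391 CPM in wild-type mice. Wild-type library 3 stood apart, since 8 markers of the cerebellum summed to 1180 CPM there and to between 197 and 289 CPM in the other libraries. 5xFAD/Cd5l tg/wt libraries 2 and 3 had the lowest such sums, 205 and 197 CPM, close to the next. Members were also fitted without these 3 libraries, a set taken from earlier results of these data, and markers of regions other than the cerebellum were not analysed here. That reduced fit holds a single 5xFAD/Cd5l tg/wt library, library 1, and assumes that it varies like the others.

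Axl, the inducible receptor of the family, had higher levels in the amyloid-bearing libraries. In the fit over all 9 libraries, its difference between 5xFAD and wild-type mice did not pass (adjusted p = 0.114 by edgeR). It had 70.6, 58.0 and 64.4 CPM in 5xFAD/Cd5l tg/wt libraries 1, 2 and 3, 58.6, 53.6 and 61.6 CPM in the 5xFAD libraries, and 45.9, 48.0 and 49.0 CPM in the wild-type libraries. Every 5xFAD/Cd5l tg/wt and 5xFAD library was above every wild-type library, and the amyloid genotypes overlapped each other. Group means were 64.3 ± 6.29 CPM in 5xFAD/Cd5l tg/wt, 58.0 ± 4.03 CPM in 5xFAD and 47.6 ± 1.55 CPM in wild-type mice (SD, n = 3 each). Axl lies on the minus strand at chr7:25456698-25488130 (GRCm39, ENSMUSG00000002602, 5033 bases long in the table).

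Against wild-type, Axl rose in 5xFAD/Cd5l tg/wt mice by a log2 fold change of 0.43 ± 0.09 (SE), a 1.35-fold difference with a 95% interval of 0.24 to 0.62 on the log2 scale (adjusted p = 0.0253, edgeR quasi-likelihood test). In 5xFAD mice against wild-type its log2 fold change was 0.28 ± 0.09, with an interval of 0.09 to 0.47, and did not pass (adjusted p = 0.114 by edgeR). Between the amyloid genotypes, 5xFAD/Cd5l tg/wt against 5xFAD, it was 0.15 ± 0.09 with an interval of -0.04 to 0.34 (adjusted p = 0.33 by edgeR), so no difference in Axl between them was shown. That value was 0.08 without 5xFAD/Cd5l tg/wt library 1, 0.09 without 5xFAD library 2, 0.22 without 5xFAD/Cd5l tg/wt library 2 and 0.27 ± 0.10 in the reduced fit, and passed in none of them (adjusted p = 0.604, 0.688, 0.222 and 0.153 by edgeR). In the reduced fit Axl was 0.58 higher in 5xFAD/Cd5l tg/wt and 0.31 higher in 5xFAD than in wild-type mice. There the 5xFAD/Cd5l tg/wt group is library 1 alone, which had the highest Axl of all libraries. By adjusted p, the call in 5xFAD/Cd5l tg/wt mice was lost on leaving out 5xFAD/Cd5l tg/wt library 3 (0.104), without 5xFAD library 1 (0.057), without any of wild-type libraries 1 (0.102), 2 (0.076) and 3 (0.0518), and when only the 6 libraries compared were fitted (0.0882, all by edgeR).

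Mertk, the receptor that macrophages and microglia use for engulfment at rest, did not separate the genotypes. It had 46.6, 41.4 and 51.2 CPM in 5xFAD/Cd5l tg/wt libraries 1, 2 and 3, 42.2, 46.3 and 32.9 CPM in the 5xFAD libraries, and 33.0, 47.7 and 32.1 CPM in the wild-type libraries. Wild-type library 2 was as high as the amyloid libraries and 5xFAD library 3 as low as the other wild-type libraries, so all groups overlapped. The log2 fold changes were 0.11 ± 0.16 in 5xFAD against wild-type (adjusted p = 0.803), 0.20 ± 0.16 in 5xFAD/Cd5l tg/wt against 5xFAD (0.494) and 0.30 ± 0.16 in 5xFAD/Cd5l tg/wt against wild-type (0.476, all by edgeR). The 95% interval of the last was -0.04 to 0.65, which includes values as large as that of Axl. In the reduced fit they were 0.02, 0.18 and 0.20 in the same order (adjusted p = 0.959, 0.63 and 0.709 by edgeR). Mertk (chr2:128540876-128644814, plus strand, GRCm39, ENSMUSG00000014361, 4336 bases) spans a small nucleolar RNA gene with 0 to 4 counts and an antisense gene, Gm14011, with 0 counts in every library.

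Tyro3, the mainly neuronal receptor, had its libraries close to 200 CPM with a pair of low ones. It had 165, 205 and 206 CPM in 5xFAD/Cd5l tg/wt libraries 1, 2 and 3, 206, 209 and 176 CPM in the 5xFAD libraries, and 197, 200 and 189 CPM in the wild-type libraries. 5xFAD/Cd5l tg/wt library 1 and 5xFAD library 3 were below the wild-type range and the other 4 amyloid libraries above it. The log2 fold changes were 0.01 ± 0.09 in 5xFAD against wild-type, -0.04 ± 0.09 in 5xFAD/Cd5l tg/wt against 5xFAD and -0.03 ± 0.09 in 5xFAD/Cd5l tg/wt against wild-type (adjusted p = 0.97, 0.847 and 0.946 by edgeR), with 95% intervals reaching from -0.24 to 0.21 at most. Their signs changed when single libraries were left out. In the reduced fit, where 5xFAD/Cd5l tg/wt mice are represented by the library with the lowest Tyro3, the values were -0.27 ± 0.10 in 5xFAD/Cd5l tg/wt against 5xFAD and -0.28 ± 0.10 in 5xFAD/Cd5l tg/wt against wild-type, beyond those intervals, and did not pass (adjusted p = 0.133 and 0.23 by edgeR). Tyro3 lies at chr2:119628214-119648585 on the plus strand (GRCm39, ENSMUSG00000027298, 6198 bases).

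Pros1, the gene of protein S, was the ligand with higher levels in the amyloid-bearing libraries. In the fit over all 9 libraries, its difference between 5xFAD and wild-type mice did not pass (adjusted p = 0.216 by edgeR). It had 27.7, 17.4 and 22.6 CPM in 5xFAD/Cd5l tg/wt libraries 1, 2 and 3, 18.7, 16.7 and 20.5 CPM in the 5xFAD libraries, and 13.5, 14.7 and 14.3 CPM in the wild-type libraries. All 6 amyloid libraries were above the highest wild-type library, whereas 5xFAD/Cd5l tg/wt library 2 lay within the 5xFAD range. Its counts were the smallest of the 5 members, 258 to 416 per library in 5xFAD/Cd5l tg/wt, 283 to 307 in 5xFAD and 207 to 241 in wild-type mice. Pros1 lies at chr16:62674670-62749709 on the plus strand (GRCm39, ENSMUSG00000022912, 4088 bases).

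Pros1 rose in 5xFAD/Cd5l tg/wt against wild-type mice by a log2 fold change of 0.67 ± 0.15, a 1.59-fold difference with a 95% interval of 0.34 to 1.00 on the log2 scale (adjusted p = 0.049 by edgeR). In 5xFAD against wild-type the log2 fold change was 0.39 ± 0.15, with an interval of 0.06 to 0.73 (adjusted p = 0.216 by edgeR). In 5xFAD/Cd5l tg/wt against 5xFAD it was 0.28 ± 0.15, with an interval of -0.05 to 0.60 (adjusted p = 0.299 by edgeR), and neither passed. The value against 5xFAD was 0.10 when 5xFAD/Cd5l tg/wt library 1 was left out and 0.43 when 5xFAD/Cd5l tg/wt library 2 was (adjusted p = 0.672 and 0.109 by edgeR). In the reduced fit the difference was 0.97 ± 0.15 against wild-type (adjusted p = 0.00346) and 0.56 ± 0.14 against 5xFAD (0.0457, both by edgeR), where its 1 library of 5xFAD/Cd5l tg/wt mice is the one with the highest Pros1. The call against wild-type lay close to the threshold. It was lost without every library other than 5xFAD/Cd5l tg/wt library 2, with adjusted p = 0.065 to 0.159 by edgeR, and was 0.50 on the log2 scale without 5xFAD/Cd5l tg/wt library 1, while without 5xFAD/Cd5l tg/wt library 2 it passed (adjusted p = 0.00694 by edgeR).

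Gas6, the ligand of all TAM receptors, was somewhat lower in 5xFAD than in wild-type libraries, without passing the test. It had 114, 98.4 and 102 CPM in 5xFAD/Cd5l tg/wt libraries 1, 2 and 3, 99.4, 99.6 and 97.8 CPM in the 5xFAD libraries, and 116, 104 and 111 CPM in the wild-type libraries. The 5xFAD libraries were tightly grouped below every wild-type library, while 5xFAD/Cd5l tg/wt library 1 lay inside the wild-type range and libraries 2 and 3 below it. The log2 fold change was -0.16 ± 0.07 in 5xFAD against wild-type, with a 95% interval of -0.32 to 0.005 (adjusted p = 0.326), 0.08 ± 0.07 in 5xFAD/Cd5l tg/wt against 5xFAD (0.539) and -0.07 ± 0.07 in 5xFAD/Cd5l tg/wt against wild-type (0.761, all by edgeR). In the reduced fit the values were -0.14, 0.19 and 0.04 in the same order (adjusted p = 0.252, 0.251 and 0.876 by edgeR), and that against 5xFAD was 0.02 without 5xFAD/Cd5l tg/wt library 1 (0.898). Gas6 (chr8:13515374-13544490, minus strand, GRCm39, ENSMUSG00000031451, 2548 bases) overlaps the end of Tmem255b on the opposite strand, which had 36 to 98 counts against 1459 to 1995 for Gas6, and whether the libraries kept strand is not given.

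**Figure D1:**
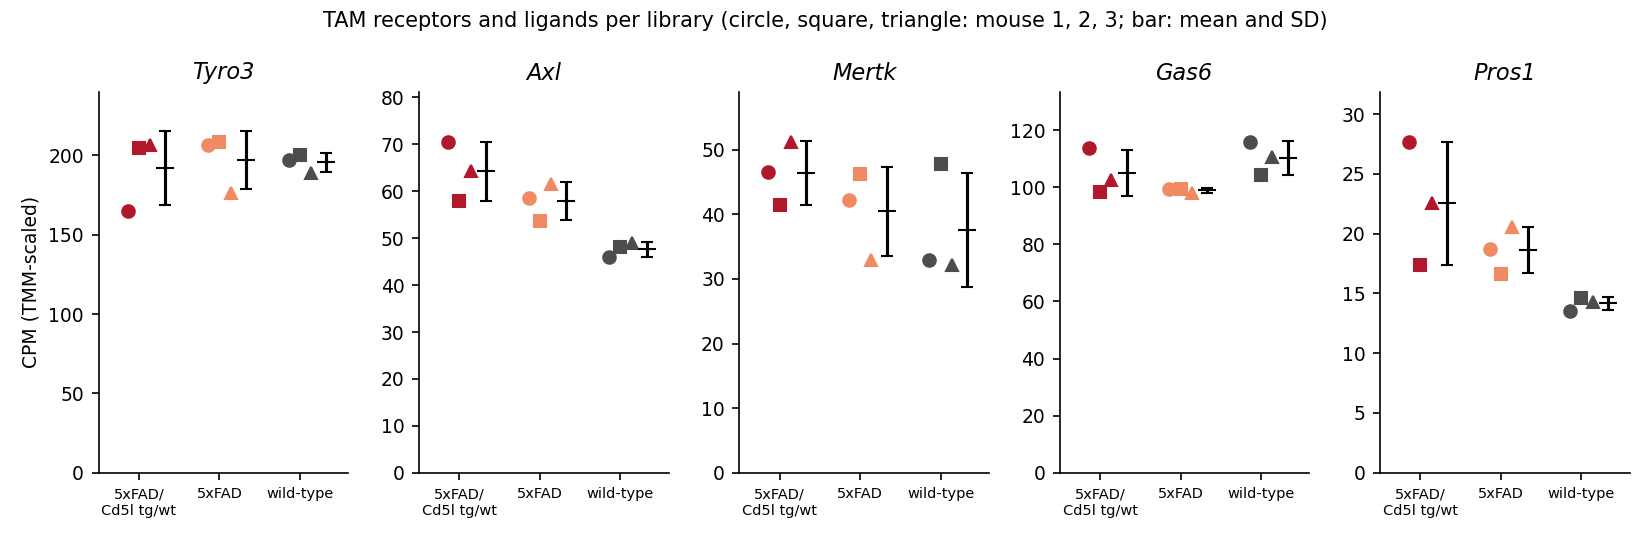
Level of each TAM receptor and ligand in CPM (vertical axis, from 0) in every library of the 3 genotypes, with the mean and SD beside the points. Axl and Pros1 of all 6 amyloid libraries lie above the wild-type libraries, while Tyro3 and Mertk overlap.

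In all, none of the 5 members passed in 5xFAD against wild-type, where 3.5% of 17575 tested genes passed at an adjusted p under 0.05, and none passed in 5xFAD/Cd5l tg/wt against 5xFAD, where 6.23% passed. At an unadjusted p under 0.05 by edgeR there were 2861 genes in 5xFAD against wild-type, Axl and Pros1 among them, and 3914 genes in 5xFAD/Cd5l tg/wt against 5xFAD, with no member among them. In 5xFAD/Cd5l tg/wt against wild-type, 2 of 5 rose, Axl and Pros1, where 1.38% of tested genes rose and 1.58% passed in either direction. Libraries of 5xFAD and wild-type mice did not overlap for 3 of the 5, Axl and Pros1 above and Gas6 below, beside 24.3% of all tested genes. Libraries of 5xFAD/Cd5l tg/wt mice and of wild-type mice did not overlap for 2 of the 5, beside 14.5%, and those of 5xFAD/Cd5l tg/wt mice and of 5xFAD mice overlapped for all 5, beside 28.7% of genes without overlap. Genes with all 6 amyloid libraries above the highest wild-type library, as Axl and Pros1 were, made up 2.78% of those tested. The comparisons against wild-type share their wild-type libraries, and both comparisons with 5xFAD share the 5xFAD libraries, so they are not independent of each other.

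**Figure D2:**
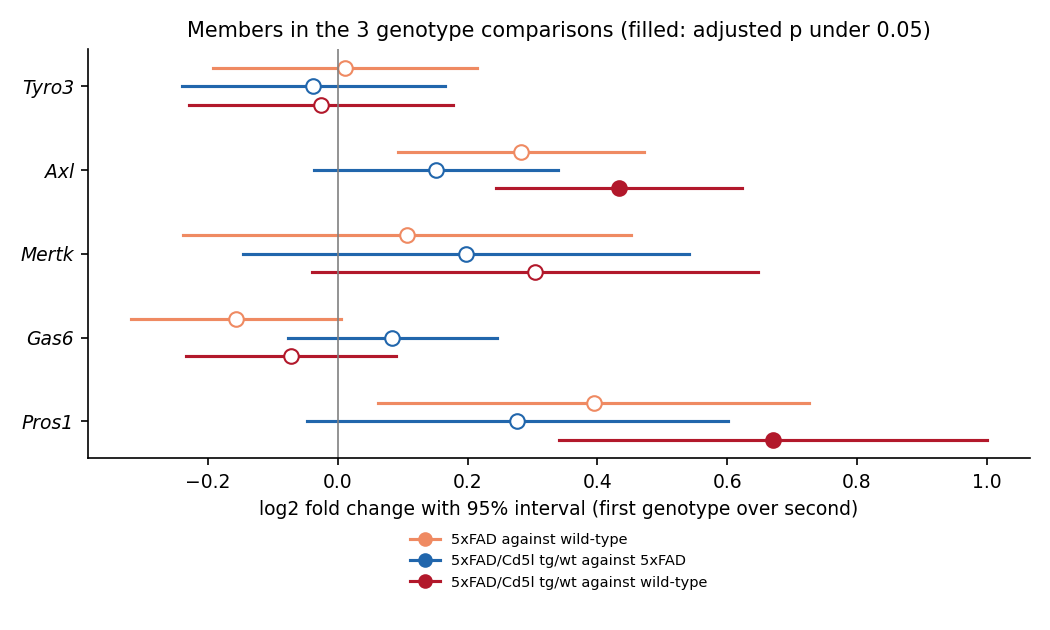
Log2 fold change of each member (horizontal axis) in the 3 comparisons, with its 95% interval as a line and filled points for adjusted p under 0.05. The filled points are Axl at 0.43 and Pros1 at 0.67 in 5xFAD/Cd5l tg/wt against wild-type.

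Set per length, the ligand Gas6 and the receptor Tyro3 were the most abundant members. In TPM, which divides counts by gene length and scales every library to the same total, Gas6 was at 142 to 174, Tyro3 at 99.7 to 125, Axl at 34.9 to 52.5, Mertk at 27.8 to 43.9 and Pros1 at 12.7 to 25.4 over the 9 libraries. Each step of this order held in 9 of 9 libraries, except that Axl exceeded Mertk in 7 of 9, and the ranges of Axl and Mertk overlapped while those of the other neighbours did not. Of the summed receptor TPM, Tyro3 made up 56.8 ± 4.67% in 5xFAD/Cd5l tg/wt, 60.3 ± 1.24% in 5xFAD and 63.6 ± 2.25% in wild-type mice (SD, n = 3 each). The share of Axl was 23.6 ± 3.26% in 5xFAD/Cd5l tg/wt, 22.0 ± 3.06% in 5xFAD and 19.1 ± 1.22% in wild-type mice, and that of Mertk 19.7 ± 1.76%, 17.6 ± 1.86% and 17.3 ± 3.02% in the same order. Pros1 made up 11.7 ± 1.65% of ligand TPM in 5xFAD/Cd5l tg/wt, 10.5 ± 1.06% in 5xFAD and 7.44 ± 0.639% in wild-type mice, so Gas6 was the main ligand transcript everywhere.

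The ratio of Gas6 to Pros1 was lower in every amyloid-bearing brain than in any wild-type brain. Pros1 alone separated the same libraries, at 16.7 to 27.7 CPM with amyloid and 13.5 to 14.7 CPM in wild-type mice. The share of all genes whose ratio to Pros1 does the same was not computed. The separation is thus not shown to be particular to Gas6. The log2 ratio of Gas6 to Pros1, from CPM, was 2.04, 2.50 and 2.18 in 5xFAD/Cd5l tg/wt libraries 1, 2 and 3, 2.41, 2.58 and 2.25 in the 5xFAD libraries, and 3.10, 2.83 and 2.95 in the wild-type libraries. The 3 wild-type libraries were the highest and 5xFAD/Cd5l tg/wt library 1 the lowest. Relative to wild-type (2.96 ± 0.13, SD) the ratio was 0.72 lower in 5xFAD/Cd5l tg/wt (2.24 ± 0.24) and 0.55 lower in 5xFAD mice (2.41 ± 0.16). Each difference had p = 0.1 in a two-sided exact permutation test of 3 against 3, the smallest p this design allows, and 0.225 after Benjamini-Hochberg adjustment over 18 ratio tests. 5xFAD/Cd5l tg/wt and 5xFAD mice differed by -0.17, with overlapping libraries (exact permutation p = 0.4). The ratio of Axl to Mertk and that of Tyro3 to Mertk overlapped in every comparison (exact permutation p = 0.2 to 0.9).

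Axl and Pros1 followed each other from library to library. Across the 9 libraries Pearson's r of their log2 CPM was 0.981 (exact permutation p = 5.51e-06, 5.51e-05 adjusted over the 10 pairs of members) and Spearman's rho was 0.983 (exact permutation p = 4.96e-05, adjusted 0.000496). Without 5xFAD/Cd5l tg/wt library 1 and wild-type library 1 Pearson's r was 0.976, those being the libraries farthest from the median of Axl. Pearson's r was 0.981 over the 6 amyloid libraries and 0.967 after removal of the genotype means, neither with a test. The permutations shuffled all 9 libraries regardless of genotype, so their p-values also reflect the genotype differences of both genes. 5xFAD/Cd5l tg/wt library 1 was the highest in both genes and wild-type library 1 the lowest in both. The other 9 pairs of members had adjusted p = 0.417 to 0.76 for r in the exact permutation test over the 9 libraries, and some had larger values in part of them, given without a test. Gas6 had r = -0.12 with Pros1 and -0.25 with Axl over the 9 libraries, 0.865 and 0.804 over the 6 amyloid libraries, and 0.569 and 0.466 after removal of the genotype means. Tyro3 had r = -0.81 with Axl and -0.78 with Pros1 after removal of the genotype means. Over the 9 libraries Tyro3 had r = -0.44 with Axl and -0.52 with Pros1. Both rested on 5xFAD library 3 and 5xFAD/Cd5l tg/wt library 1, since r was 0.68 and 0.694 without them. The values of Tyro3 after removal of the genotype means were not computed without these libraries.

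**Figure D3:**
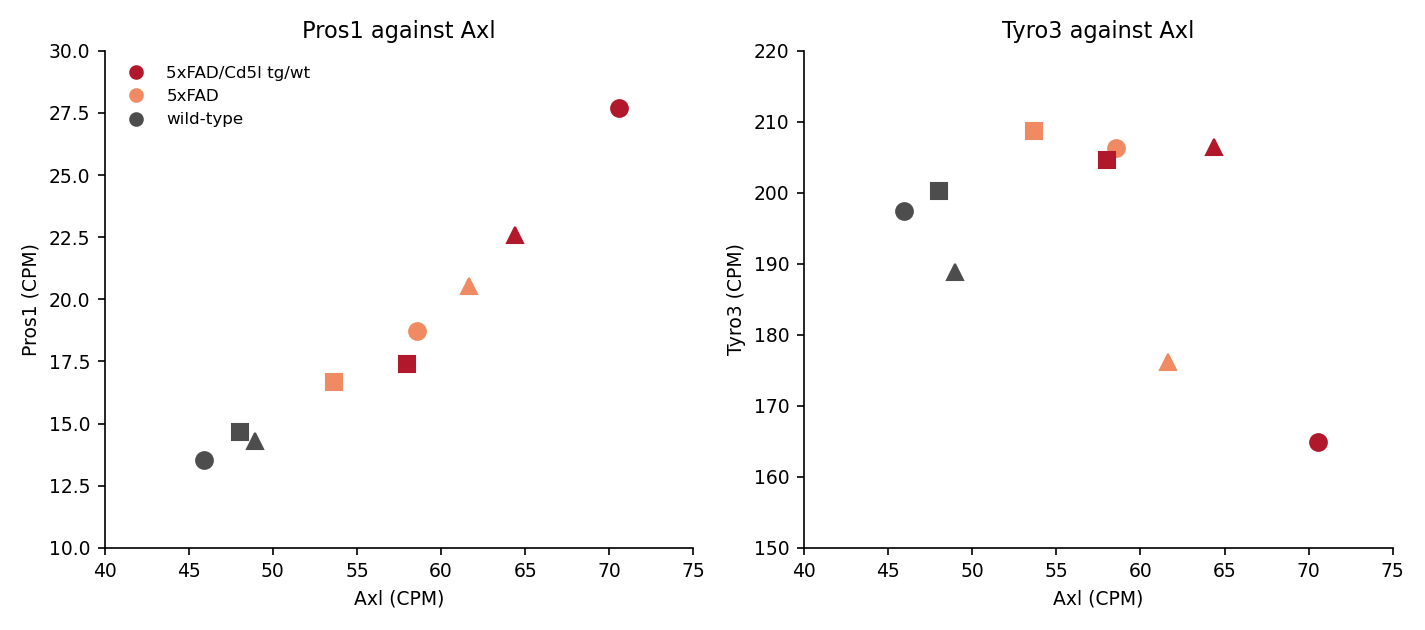
Pros1 (left) and Tyro3 (right) against Axl, all in CPM on axes that do not start at 0, with 1 point per library. Pros1 is higher where Axl is higher, with 5xFAD/Cd5l tg/wt library 1 at the top and the wild-type libraries at the bottom, whereas the lowest values of Tyro3 are in 5xFAD/Cd5l tg/wt library 1 and 5xFAD library 3.

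Genes whose log2 CPM was most like that of each member over the 9 libraries were taken from 15895 genes with a mean of at least 1 CPM. For Axl these were the cathepsin gene Ctsl (r = 0.973), the urokinase gene Plau (0.972) and the TGF-beta receptor gene Tgfbr2 (0.971). For Pros1 they included the pseudogene Rps2-ps13 (0.982) and the lysosomal amidase gene Naaa (0.960). Mertk was matched less closely, by Stard8 (0.90), Sin3b (0.893) and Ddx41 (0.893). Gas6 was nearest to Hyi (0.962), Bhlhe41 (0.956) and Tmprss5 (0.956), and Tyro3 to R3hdm2 (0.979), 1700028E10Rik (0.973) and ENSMUSG00000120604 (0.953). With 9 libraries that share genotype, depth and tissue composition, these values are descriptions.

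Microglial markers also differed between the genotypes, in the direction of Axl and Pros1. The summed level of 12 microglial genes was 779 to 851 CPM in 5xFAD/Cd5l tg/wt mice, 649 to 820 CPM in 5xFAD mice and 382 to 427 CPM in wild-type mice, and no gene of the list was at 0. Of the 12, 11 rose in 5xFAD against wild-type (median log2 fold change 0.76, -0.01 over all tested genes), none passed in 5xFAD/Cd5l tg/wt against 5xFAD (0.17, 0.007 over all), and 10 rose in 5xFAD/Cd5l tg/wt against wild-type (1.00, 0.0008 over all). The count of 11 was 5 without wild-type library 1, 6 without 5xFAD library 1 and 5 without 5xFAD library 3. In bulk tissue, a change in the number of cells of a type and a change in RNA per cell cannot be told apart. The part of microglial number in the differences of Axl and Pros1 was not tested.

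Ratios to this list describe how far Axl, Mertk and Gas6 fell short of its rise. The same ratio was not computed for Pros1 or Tyro3. The log2 ratio of Axl to the mean of the list was 0.74, 0.49 and 0.53 in 5xFAD/Cd5l tg/wt libraries 1, 2 and 3, 0.64, 0.61 and 0.53 in the 5xFAD libraries, and 1.08, 0.97 and 1.27 in the wild-type libraries. No amyloid library reached the wild-type range. Relative to wild-type, the ratio was 0.52 lower in 5xFAD/Cd5l tg/wt and 0.51 lower in 5xFAD mice for Axl, 0.63 and 0.67 lower for Mertk, and 1.02 and 0.95 lower for Gas6, each without overlap. Because the list itself was higher with amyloid, most genes gave the same result: of 17563 tested genes outside the list, 85.9% had a lower ratio without overlap in 5xFAD/Cd5l tg/wt against wild-type and 84.5% in 5xFAD against wild-type. The separation is therefore not particular to the members. With the median of the list in place of its mean, the differences of 5xFAD/Cd5l tg/wt from wild-type were smaller, -0.28 for Axl, -0.38 for Mertk and -0.78 for Gas6. 5xFAD/Cd5l tg/wt and 5xFAD mice overlapped for all 3 ratios, with differences of -0.01 for Axl, 0.05 for Mertk and -0.08 for Gas6 (exact permutation p = 0.7 to 0.9).

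**Figure D4:**
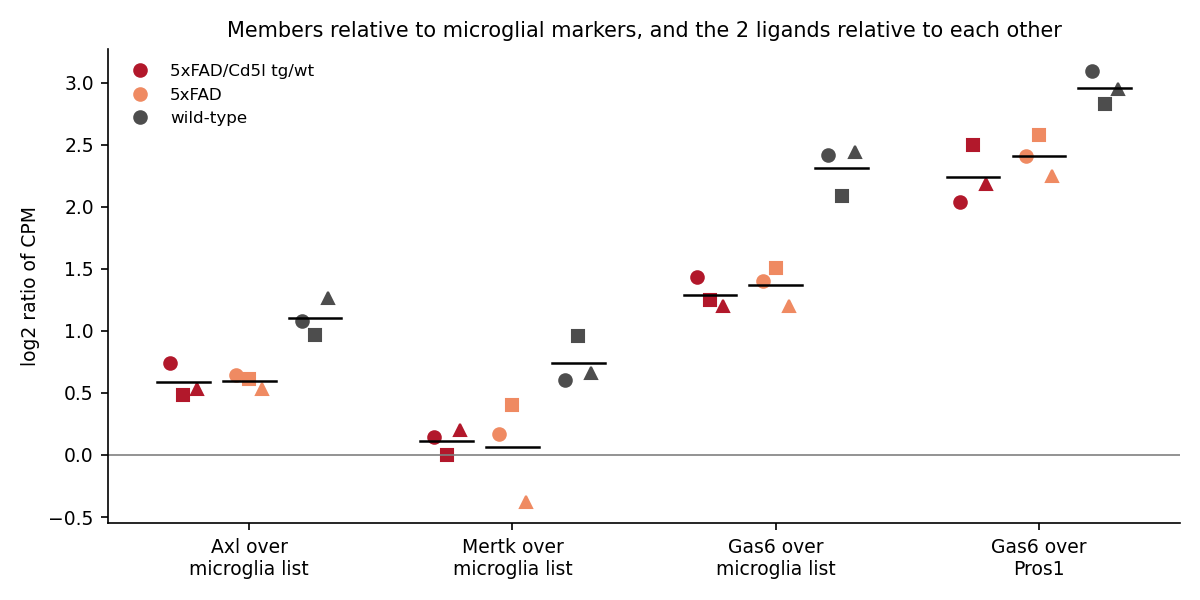
Log2 ratio of CPM (vertical axis) of Axl, Mertk and Gas6 to the mean of 12 microglial markers, and of Gas6 to Pros1, with 1 point per library and a bar at each genotype mean. In all 4 ratios the 5xFAD/Cd5l tg/wt and 5xFAD libraries lie below the wild-type libraries.

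Markers of some other cell types also differed between the genotypes. The summed level of 11 endothelial genes was 259 to 314 CPM in 5xFAD/Cd5l tg/wt mice, 157 to 194 CPM in 5xFAD mice and 244 to 274 CPM in wild-type mice. Of them, 3 fell in 5xFAD against wild-type, 7 rose in 5xFAD/Cd5l tg/wt mice against 5xFAD mice and none passed in 5xFAD/Cd5l tg/wt against wild-type. The count of 7 was 3 on leaving out 5xFAD/Cd5l tg/wt library 2, 5xFAD/Cd5l tg/wt library 3, 5xFAD library 1 or 5xFAD library 2. Mural cell and fibroblast genes, 11 in number, summed to 198 to 238 CPM in 5xFAD/Cd5l tg/wt, 155 to 178 CPM in 5xFAD and 195 to 208 CPM in wild-type mice, with 1 lower in 5xFAD against wild-type and 2 higher in 5xFAD/Cd5l tg/wt against 5xFAD. The 10 astrocyte genes summed to 4766 to 5065 CPM in 5xFAD/Cd5l tg/wt, 4921 to 5074 CPM in 5xFAD and 4284 to 4877 CPM in wild-type mice. None of them passed against wild-type, and 1 fell in 5xFAD/Cd5l tg/wt against 5xFAD (0 to 1 without 1 library). The 8 oligodendrocyte genes summed to 4731 to 7100 CPM in 5xFAD/Cd5l tg/wt, 6690.5 to 7543.5 CPM in 5xFAD and 7397 to 8317 CPM in wild-type mice. None of these passed in any comparison. Of 8 genes of border macrophages 6 could be tested and none passed in any comparison, with sums of 5.66 to 12.5 CPM in 5xFAD/Cd5l tg/wt, 9.97 to 10.8 CPM in 5xFAD and 7.44 to 9.82 CPM in wild-type mice. Genes of blood monocytes and neutrophils summed to at most 0.866 CPM in 5xFAD/Cd5l tg/wt, 0.402 CPM in 5xFAD and 0.553 CPM in wild-type mice, and none of the 7 had enough counts to be tested. The part of vascular cells, astrocytes or oligodendrocytes in the member levels was not tested.

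Among the other receptors and bridges for phosphatidylserine, 18 of 22 genes could be tested. In 5xFAD against wild-type 3 rose and none fell (median 0.37): Trem2, the microglial lipid receptor, by 2.02 ± 0.16, C1qa, a chain of the complement opsonin C1q, by 1.38 ± 0.12, and Itgb5, an integrin subunit that works with Mfge8, by 0.72 ± 0.09 on the log2 scale (adjusted p = 3.18e-05, 5.17e-05 and 0.000772 by edgeR). None passed in 5xFAD/Cd5l tg/wt against 5xFAD (median 0.07). In 5xFAD/Cd5l tg/wt against wild-type 4 rose (median 0.14), Trem2 by 2.44 ± 0.16, C1qa by 1.51 ± 0.12 and Itgb5 by 0.65 ± 0.09 (adjusted p = 5.44e-06, 1.37e-05 and 0.00186 by edgeR). The other was Cd300lf, a phosphatidylserine receptor of myeloid cells named here after its values were seen, at 1.41 ± 0.46 CPM in 5xFAD/Cd5l tg/wt against 0.21 ± 0.03 CPM in wild-type mice (SD, n = 3 each, adjusted p = 0.0204 by edgeR), and its call was lost without 5xFAD/Cd5l tg/wt library 3 (0.105) or any wild-type library (0.0629 to 0.0936) and in the reduced fit (0.0772).

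Phosphatidylserine exposure, the signal that the ligands read, was represented by 13 tested genes of 14. Atp11b, one of the flippases that keep phosphatidylserine on the inner leaflet, fell to 50.5 ± 3.61 CPM in 5xFAD mice, against 92.9 ± 3.37 CPM in wild-type mice (SD, n = 3 each), a log2 fold change of -0.88 ± 0.09 (adjusted p = 0.000224 by edgeR). In 5xFAD/Cd5l tg/wt mice Atp11b reached 105 ± 12.4 CPM, a log2 fold change of 1.06 ± 0.09 against 5xFAD (adjusted p = 0.000102 by edgeR). Both calls held in every fit without 1 library, with log2 fold changes of -0.93 to -0.83 and of 0.97 to 1.14. Plscr3, a phospholipid scramblase gene, was 0.59 ± 0.15 higher in 5xFAD/Cd5l tg/wt against 5xFAD (adjusted p = 0.0348 by edgeR) and passed in 3 of 9 fits without 1 library, those lacking 5xFAD/Cd5l tg/wt library 1, 5xFAD library 3 or wild-type library 3. Plscr3 was at 0.35 in the reduced fit and did not pass (adjusted p = 0.334 by edgeR). The list's median was -0.23 in 5xFAD against wild-type, 0.27 in 5xFAD/Cd5l tg/wt against 5xFAD and 0.03 in 5xFAD/Cd5l tg/wt against wild-type, where none passed.

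Of 22 genes of the engulfment machinery that acts downstream of the receptors, 2 rose in 5xFAD against wild-type and none fell (median 0.11): Dock2, a Rac activator of blood-derived and microglial cells, by 0.98 ± 0.20, and Vav1, another guanine nucleotide exchange factor, by 0.90 ± 0.21 (adjusted p = 0.0169 and 0.0357 by edgeR). Dock2 did not pass without 5xFAD library 3 or wild-type library 1 or 3, and Vav1 passed in 3 of 9 fits without 1 library, those lacking 5xFAD/Cd5l tg/wt library 1 or 2 or 5xFAD library 3. None passed in 5xFAD/Cd5l tg/wt against 5xFAD (median -0.08). In 5xFAD/Cd5l tg/wt against wild-type 3 rose (median 0.008), Vav1 by 1.31 ± 0.21, Dock2 by 1.17 ± 0.19 and the GTPase gene Rac2 by 1.24 ± 0.23 (adjusted p = 0.00495, 0.00682 and 0.0142 by edgeR). Rac2 did not pass without 5xFAD/Cd5l tg/wt library 3 (0.0703) or wild-type library 3 (0.0669), nor Vav1 in the reduced fit (0.88 on the log2 scale, adjusted p = 0.173 by edgeR). Rac1, Elmo1 and Dock1 of the same list, chosen after their values were seen, had log2 fold changes of -0.31 to 0.14 over the 3 comparisons and did not pass.

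Of 6 genes for the vitamin K cycle, ligand maturation and receptor shedding, Ggcx, the carboxylase that makes Gas6 and protein S able to bind phosphatidylserine, was 0.43 ± 0.11 higher in 5xFAD/Cd5l tg/wt against 5xFAD (adjusted p = 0.0425 by edgeR), a call that held in 2 of 9 fits without 1 library, those without 5xFAD/Cd5l tg/wt library 1 or wild-type library 3. Ggcx was at 0.29 in the reduced fit and did not pass (adjusted p = 0.318 by edgeR). Mean Ggcx was 15.2 CPM in 5xFAD/Cd5l tg/wt, 11.3 CPM in 5xFAD and 14.7 CPM in wild-type mice. None of the 6 genes passed in the other comparisons, and the sheddase genes Adam10 and Adam17 passed in none. Of 18 genes for nuclear receptor feedback and cytokine restraint, none passed in any comparison (medians 0.04 in 5xFAD against wild-type, 0.04 in 5xFAD/Cd5l tg/wt against 5xFAD and 0.06 in 5xFAD/Cd5l tg/wt against wild-type). That list held the LXR genes Nr1h2 and Nr1h3 and the cytokine suppressors Socs1 and Socs3, which TAM signalling is known to engage. Socs1 had a mean of 0.673 CPM in 5xFAD and 0.716 CPM in wild-type mice. In 5xFAD against wild-type the 95% log2 intervals were -1.14 to 0.98 for Socs1, -0.55 to 0.66 for Socs3 and -1.01 to 0.46 for Nr1h3. These are wide and leave room for sizeable changes, while that of Nr1h2 was -0.24 to 0.15.

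**Figure D5:**
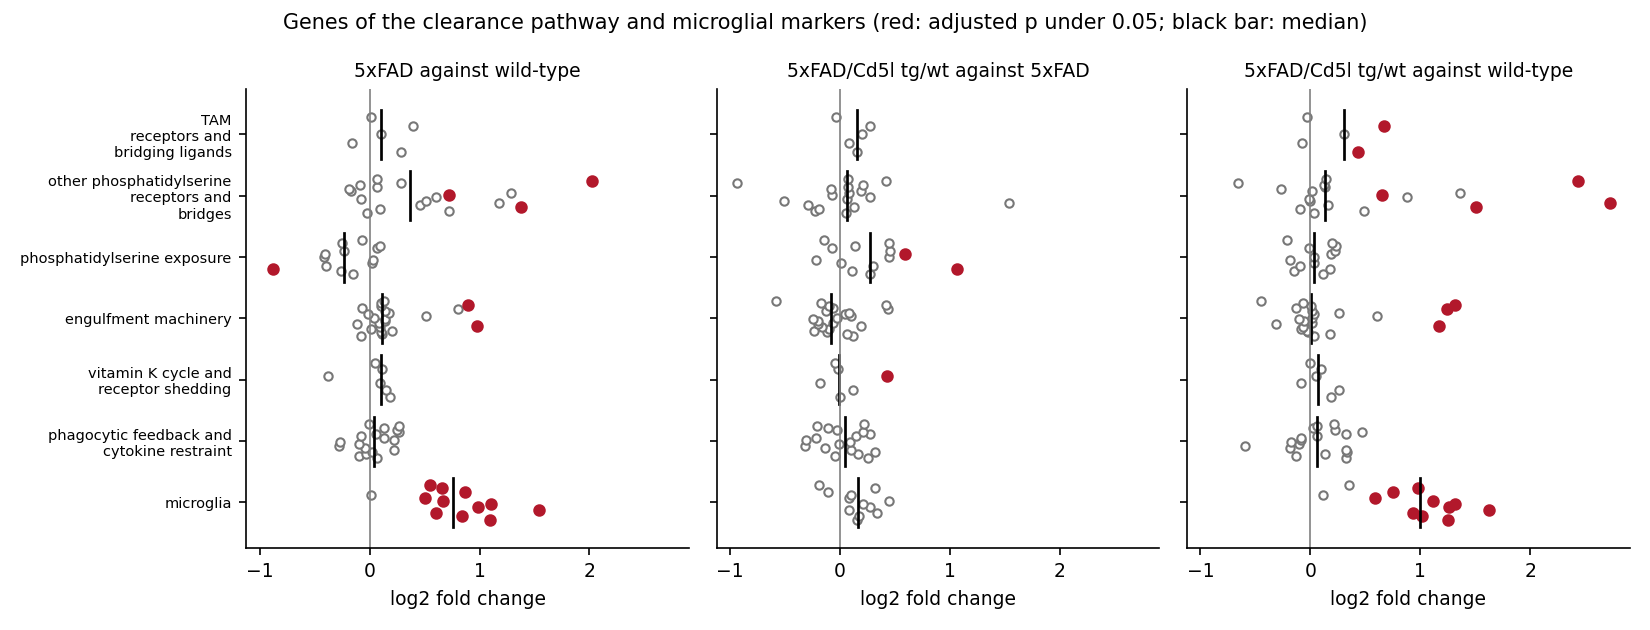
Log2 fold changes (horizontal axis) of the tested genes of each list in the 3 comparisons, with red points for adjusted p under 0.05 and a black bar at the list's median. Red points are most frequent among microglial markers in both comparisons against wild-type, and none of that list is red in 5xFAD/Cd5l tg/wt against 5xFAD.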

How the data were processed

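Per the labels' protocols, total RNA of brain without cerebellum was sequenced on an Illumina platform. The authors deposited 1 table of unnormalized read counts per gene, which were checked to be whole numbers. The submitters' processing notes name the build GRCm39, with aligner, counter and strand setting not given in the sources used here. Libraries were grouped by the genotype in their titles.

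From the deposited counts, genes were kept by filterByExpr (minimum count 10, minimum total 15, by genotype), scaled by TMM (factors 0.987 to 1.018) and fitted over all 9 libraries with 1 coefficient per genotype by the quasi-likelihood test of edgeR 4.0.16 (R 4.3.3, limma 3.58.1). P-values were adjusted by Benjamini-Hochberg over 17575 genes, with a threshold of 0.05. The SE is the absolute log2 fold change over the root of F, and intervals are at 95%. CPM used scaled library sizes, and log2 CPM a prior count of 0.5. The test was tried on simulated data. Alternatives were scaling by RLE, by upper quartile or by total counts, 2 other filters, DESeq2 1.42.0, limma-voom, other sets of libraries and a replicate block. The members and lists were chosen with earlier results of these data known. Beyond the members, named genes were up to 4 per pathway list and comparison that passed with the smallest p at a mean of at least 1 CPM, and the 3 genes most correlated with each member, of which 1 is not reported here. Rac1, Elmo1, Dock1, Adam10, Adam17, Nr1h2, Nr1h3, Socs1 and Socs3 were named after their values were seen. Nothing in the labels says that the mice came from separate litters or days, so p-values measure the spread between these libraries. Figures were drawn with matplotlib 3.10.9.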

Additional observations from a re-analysis of the deposited data

How the results depend on the processing

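The direction of Axl and Pros1 was positive in all 3 comparisons under all 19 alternatives to the fit described. In 5xFAD/Cd5l tg/wt against wild-type, Axl passed in 13 of 19 (log2 fold change 0.36 to 0.58, 0.36 to 0.50 without 1 library) and Pros1 in 6 of 19 (0.50 to 0.97, 0.50 to 0.82 without 1 library). Pros1 did not pass with upper-quartile scaling (0.68, leaving 1 member past), total counts (0.67, leaving 1), limma-voom (0.65, leaving 1) or only the 6 libraries compared (0.67), and Axl did not pass in that last fit either (0.43, leaving 0). With the replicate number as a block, Pros1 was 0.65 (adjusted p = 0.0593, edgeR) and 1 member passed. Same-numbered libraries had correlations of -0.14 to 0.193 after removal of genotype means. Differently numbered libraries were not compared, so these values do not show whether the number pairs libraries. Without 1 library, 0 to 2 members passed.

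In the reduced fit, which lacks 5xFAD/Cd5l tg/wt libraries 2 and 3 as well as wild-type library 3, 1 member passed in 5xFAD against wild-type (Axl, 0.31) and 1 in 5xFAD/Cd5l tg/wt against 5xFAD (Pros1, 0.56), Gas6 in 5xFAD/Cd5l tg/wt against wild-type turned to 0.043 and Tyro3 in 5xFAD against wild-type to -0.00075, while Tyro3 moved to -0.27 in 5xFAD/Cd5l tg/wt against 5xFAD and to -0.28 against wild-type. Without 1 library, Tyro3 ran from -0.031 to 0.087 in 5xFAD against wild-type, from -0.11 to 0.058 in 5xFAD/Cd5l tg/wt against 5xFAD and from -0.084 to 0.070 in 5xFAD/Cd5l tg/wt against wild-type, and Mertk in 5xFAD against wild-type from -0.0016 to 0.33. Axl ran from 0.078 to 0.22, Pros1 from 0.10 to 0.43, Mertk from 0.066 to 0.30 and Gas6 from 0.019 to 0.13 in 5xFAD/Cd5l tg/wt against 5xFAD. None of these values without 1 library passed, nor did Gas6 or Tyro3 without the 3. With the median of the microglial list, the log2 ratios of 5xFAD/Cd5l tg/wt minus wild-type were -0.28 for Axl, -0.38 for Mertk and -0.78 for Gas6. The cause of these shifts was not tested.

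Over all genes, 615 passed in 5xFAD against wild-type (1354 without a filter, 1154 without the 3 libraries, 206 to 850 without 1 library), 1095 in 5xFAD/Cd5l tg/wt against 5xFAD (2063, 630 and 278 to 2069 under the same changes) and 277 in 5xFAD/Cd5l tg/wt against wild-type (1062 without a filter, 472 with DESeq2, 176 with the 6 libraries compared, 158 to 686 without 1 library). Scaling moved the median of all genes by at most 0.0138 (log2). With 207 to 416 counts per library, Pros1 is the member whose counting error is largest.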
